A study of Rattus norvegicus with 9 samples.

Results

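The growth plate signals described here are 10 genes, chosen by their symbols from a table of 23026: the hedgehog genes Ihh, Ptch1, Gli1, Gli2 and Hhip, the parathyroid hormone-related protein genes Pthlh and Pth1r, the fibroblast growth factor receptor gene Fgfr3, and the natriuretic peptide genes Npr3 and Nppc. They were measured by mRNA sequencing of rat bone in 3 groups of 3 libraries, 1 library per animal. All animals were female Sprague-Dawley rats, 8 weeks old at purchase. Sham rats kept their ovaries and lost a matching amount of fat, OVX rats were bilaterally ovariectomized, and OVX-AS-IV-High rats were ovariectomized and given 80 mg/kg of AS-IV (Astragaloside IV, a saponin of Astragalus). Libraries of the last group are called AS-IV libraries where values are listed, always in the order of replicates 1 to 3. Gavage began 6 weeks after surgery and ran for 8 weeks in all 3 groups, and the groups without AS-IV received the vehicle, CMC-Na (sodium carboxymethyl cellulose). Its strength is labelled 1% for the OVX samples but 1%, 2% and 3% for Sham replicates 1 to 3, while the study's methods describe the same vehicle for both groups, so the labelled steps may not be a real difference. The labels call the tissue bone and do not say how much growth plate each piece held.

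In a growth plate, columns of chondrocytes proliferate, enlarge and are replaced by bone. Prehypertrophic chondrocytes secrete Indian hedgehog (Ihh), which binds Patched (Ptch1), frees Smoothened and acts through the Gli transcription factors, while Ptch1, Gli1 and Hhip are themselves hedgehog targets. Ihh also sustains parathyroid hormone-related protein (Pthlh), which acts through Pth1r to delay enlargement. Fgfr3 slows chondrocyte growth, and C-type natriuretic peptide (Nppc) favours it, with Npr3 clearing the peptide.

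The libraries held 34874880 to 37298250 counts each. Cartilage RNA was present in all 9: the level of Col2a1, the main collagen of cartilage, was 36.2 to 452.8 FPKM (fragments per kilobase of gene, scaled to library size), that of Acan 6.24 to 36.6 FPKM and that of Col10a1, the collagen of hypertrophic chondrocytes, 3.04 to 53.9 FPKM, with the lowest value of each in OVX replicate 1. Other tissues contributed too. The osteoblast gene Bglap lay between 441 and 2018 FPKM, the adipocyte gene Adipoq between 17.8 and 119 FPKM, and the muscle gene Acta1 between 94.5 and 1825 FPKM, highest in Sham replicates 1 and 2. In bulk bone, fewer cells of a type and less RNA per cell cannot be told apart.

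On FPKM, the scale that takes gene length into account, the mean level over the 9 libraries was 17.1 ± 4.25 (SD, n = 9) for Pth1r, 9.25 ± 1.97 for Fgfr3, 4.75 ± 1.13 for Ptch1, 2.96 ± 1.47 for Ihh, 2.14 ± 0.901 for Gli1 and 1.14 ± 0.309 for Gli2. The remaining means were 0.705 ± 0.214 FPKM for Npr3, 0.547 ± 0.252 for Pthlh, 0.358 ± 0.164 for Hhip and 0.15 ± 0.146 for Nppc. By mean level, the receptors Pth1r, Fgfr3 and Ptch1 stood above the ligands Ihh, Pthlh and Nppc, while the receptor Npr3 lay below Ihh. Ptch1 exceeded Ihh in 8 of the 9 libraries, and Hhip and Nppc were the least abundant. Of neighbours in this order, only Fgfr3 and Ptch1 had ranges that did not overlap. Within libraries the order was steadier: Pth1r exceeded Fgfr3, Gli1 exceeded Gli2 and Gli2 exceeded Npr3 in 9 of 9 libraries, whereas Ihh exceeded Gli1 in 7 and Npr3 exceeded Pthlh in 6. Among genes with a count in any library, mean FPKM was lower than that of Pth1r in 81.8% and lower than that of Nppc in 31.0%.

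**Figure D1:**
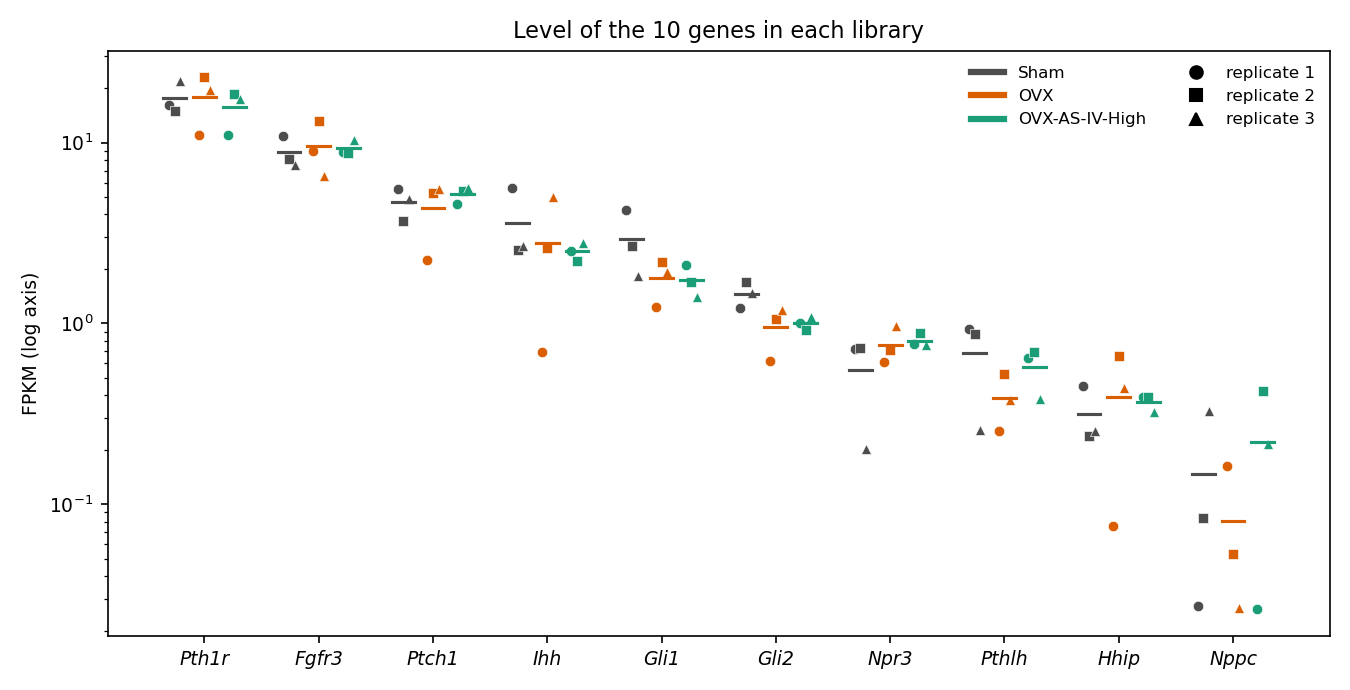
Level of each of the 10 genes in FPKM on a log axis, genes in order of their mean; each point is 1 library, colours are groups, shapes are replicate numbers and short lines are group means (n = 3). OVX replicate 1 is the lowest point for Ptch1, Gli1, Gli2, Ihh and Hhip, and Nppc is spread between 0.0263 and 0.422 FPKM.

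The first question of the design was whether ovariectomy was accompanied by a different level of these genes. Gli1 and Gli2 had the lower level in OVX, with a log2FC (log2 fold change, first group minus second) of -0.74 and -0.64, and the 95% intervals of the other members included 0. By edgeR's quasi-likelihood test, 0 of the 9 members tested had an adjusted p under 0.05, and none did under any alternative fit, DESeq2 among them, where the smallest adjusted p of a member was 0.11 (Gli1, without Sham replicate 3). The edgeR fit gave such an adjusted p to 0 of all 16874 genes in each of the 3 comparisons, so the members' count is that of every gene. DESeq2 called 4.85% of genes in OVX vs. Sham (790), 0.151% for OVX-AS-IV-High vs. OVX (26) and 5.8% in OVX-AS-IV-High vs. Sham (945), and none of the members. At an unadjusted p under 0.05, 2 of 9 were lower in OVX, Gli1 and Gli2, against 16.4% of all 16874 genes tested in either direction. No member was a DEG (unadjusted p under 0.05 and absolute log2FC over 1), as 3.11% of all genes were. The libraries of the OVX and Sham groups did not overlap for 1 member, Gli2, against 23.7% of all genes. The median log2FC of the 9 members was -0.13, beside -0.01 over all genes, and 0.12 without OVX replicate 1. Nppc had too few counts to be tested in the main edgeR fit.

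Whether AS-IV moved the same genes was addressed by the AS-IV group against OVX. No member had an unadjusted p under 0.05, where 6.45% of all genes did, none was a DEG, where 0.83% were, and none had groups that did not overlap, where 13.8% did. In OVX-AS-IV-High vs. Sham, 1 of 9 members had an unadjusted p under 0.05, Gli1, against 17.6% of all genes. With only the groups compared, limma on log2(FPKM + 1), the replicate block or without Sham replicate 1, the 1 member called there was Gli2 in place of Gli1. None was a DEG against 3.15%, and the groups did not overlap for Gli2 (lower) and Npr3 (higher), against 19.8%. These comparisons share their OVX or Sham libraries and are not independent of each other. A contrast of both ovariectomized groups with Sham, added after the data were seen, gave an unadjusted p under 0.05 for 2 of 9 members, again Gli1 and Gli2, against 21% of all genes. In that contrast only Gli2 among the members had libraries that did not overlap, against 9.58% of all genes.

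**Figure D2:**
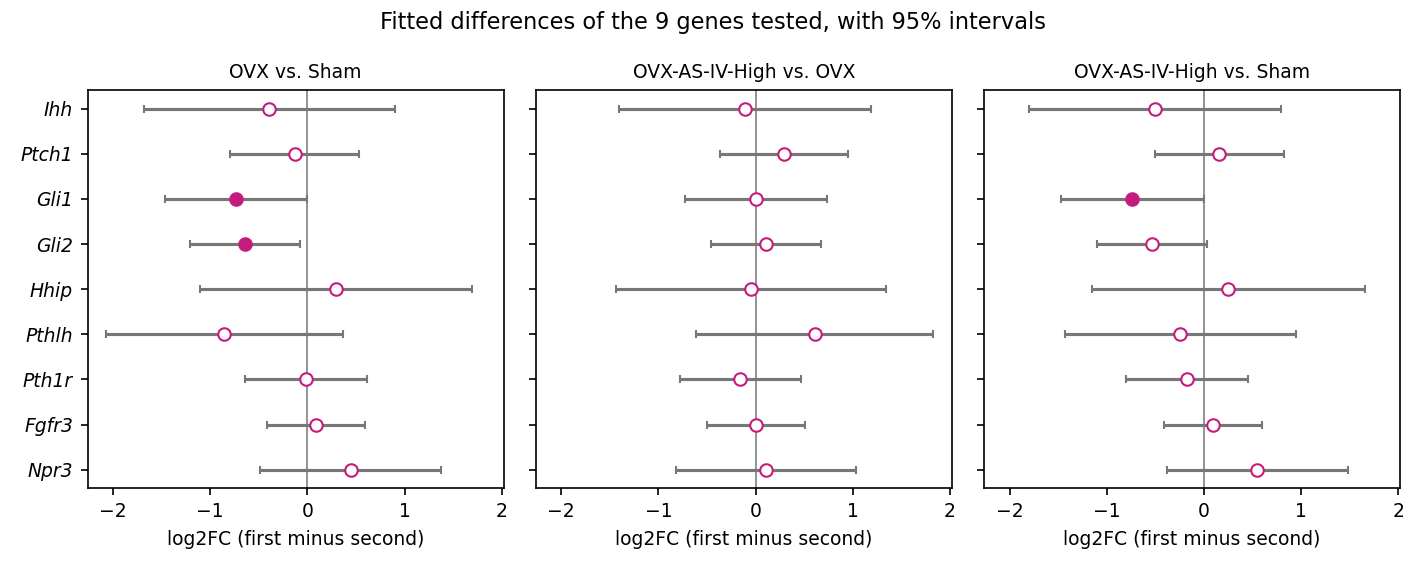
Fitted log2FC (first group minus second) of the 9 members tested, with 95% intervals, in the 3 comparisons; filled points have an unadjusted p under 0.05. Gli1 at -0.74 and Gli2 at -0.64 are the only filled points in OVX vs. Sham, and no point is filled for OVX-AS-IV-High vs. OVX.

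Ihh, the secreted signal, had 454, 201 and 217 counts for the Sham libraries, 57, 219 and 417 in those of OVX, and 214, 187 and 229 with AS-IV. The groups overlapped fully, since OVX held both the lowest library and 1 of the 2 highest, while the OVX-AS-IV-High libraries lay close together. Scaled to library size as CPM (counts per 1000000), the Sham mean was 8.17 ± 3.90, that of OVX 6.28 ± 4.89 and that of OVX-AS-IV-High 5.69 ± 0.637 (SD, n = 3). Ihh varied 8.06 times between its lowest and highest library. Its log2FC was -0.39 (SE 0.574, edgeR adjusted p = 0.742) in OVX vs. Sham, with a 95% interval from -1.69 to 0.90, and 0.07 without OVX replicate 1. With AS-IV the log2FC against OVX was -0.11 (95% interval -1.41 to 1.18), and 0.65 without OVX replicate 3.

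Ptch1, the Ihh receptor and a hedgehog target, had 1781, 1147 and 1553 counts per Sham library, 728, 1739 and 1828 per OVX library and 1534, 1789 and 1835 per AS-IV library. OVX replicate 1 was the lowest library, and the other OVX libraries were close to the highest of the other groups. The log2FC was -0.13 (SE 0.294) in OVX vs. Sham, 0.18 without OVX replicate 1, 0.29 (SE 0.294) for OVX-AS-IV-High vs. OVX and 0.16 (SE 0.293) for OVX-AS-IV-High vs. Sham. The adjusted p was 0.839, 0.945 and 0.807 in the same order.

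Hhip, a membrane protein that binds hedgehog ligands and is itself a hedgehog target, had 41, 21 and 23 counts across the Sham replicates, 7, 62 and 41 across the OVX replicates, and 37, 37 and 30 across the AS-IV replicates. The lowest and the highest library were both OVX, a range of 8.72 times in CPM. Hhip differed by a log2FC of 0.30 (SE 0.623) in OVX vs. Sham and -0.29 without OVX replicate 2. It differed by -0.05 (SE 0.618) for OVX-AS-IV-High vs. OVX.

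The RefSeq promoter table (build GRCr8, not the build of the counts, 250 bases before to 50 after each gene's start) held 7 of the 10 genes. The windows of the targets Ptch1 and Hhip, and of Gli2, whose Sham and OVX libraries did not overlap, are shown. Ptch1 and Hhip were the closest pair of members over the 9 libraries, with Pearson's r = 0.895 of log2 CPM. That r was 0.118 without the 2 libraries farthest from the median of Ptch1. Capitals mark the GLI consensus GACCACCCA on either strand. The windows lie at chr17:1555321-1555620 (plus strand) for Ptch1, chr19:44767788-44768087 (plus strand) for Hhip and chr13:32716369-32716668 (minus strand) for Gli2.
Ptch1: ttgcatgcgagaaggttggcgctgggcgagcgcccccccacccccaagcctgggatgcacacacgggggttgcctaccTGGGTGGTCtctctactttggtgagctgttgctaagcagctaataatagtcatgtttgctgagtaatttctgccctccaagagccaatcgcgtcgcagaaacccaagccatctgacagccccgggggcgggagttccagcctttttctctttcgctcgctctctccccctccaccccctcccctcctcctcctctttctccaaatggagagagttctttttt
Hhip: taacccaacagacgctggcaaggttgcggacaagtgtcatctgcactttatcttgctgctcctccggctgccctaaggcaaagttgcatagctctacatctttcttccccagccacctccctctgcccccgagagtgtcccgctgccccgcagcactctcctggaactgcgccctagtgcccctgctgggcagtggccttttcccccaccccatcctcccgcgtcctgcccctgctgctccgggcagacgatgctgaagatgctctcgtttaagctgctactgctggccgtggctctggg
Gli2: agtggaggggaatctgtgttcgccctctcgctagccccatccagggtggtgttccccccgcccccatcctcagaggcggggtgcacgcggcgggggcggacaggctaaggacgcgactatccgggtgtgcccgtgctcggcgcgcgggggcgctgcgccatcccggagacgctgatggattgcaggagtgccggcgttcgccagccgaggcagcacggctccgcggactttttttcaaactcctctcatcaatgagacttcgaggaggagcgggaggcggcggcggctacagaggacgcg
The Ptch1 window held 1 match, on its opposite strand, 172 to 164 bases before the start. The letters were in 1 of the 7 member promoters and in 0.385% of all 33469 promoters. The GC box GGGCGG, searched on both strands, was in 5 of the 7 (Ptch1, Gli2, Fgfr3, Pth1r and Nppc) and in 33.1% of all promoters, and the TATA box letters TATAAA were in Nppc alone among the 7 and in 14.2% of all. GC content was 57.3% for Ptch1, 61.7% for Hhip, 68.3% for Gli2 and 78.7% for Pth1r, beside a median of 51.7% over all promoters. Such matches describe letters and do not show that a factor binds there.

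Gli1, a hedgehog-induced transcriptional activator, had 649, 400 and 277 counts for the Sham libraries, 190, 343 and 301 in those of OVX, and 335, 269 and 216 with AS-IV. Sham replicates 1 and 2 were above every other library, and Sham replicate 3 lay among the OVX libraries. The Sham mean was 12.4 ± 5.25 CPM, that of OVX 7.58 ± 2.10 and that of OVX-AS-IV-High 7.39 ± 1.52 (SD, n = 3). The log2FC was -0.74 (SE 0.325, 95% interval -1.47 to -0.01, edgeR adjusted p = 0.301) in OVX vs. Sham, and -0.74 (SE 0.325, adjusted p = 0.282) for OVX-AS-IV-High vs. Sham. OVX-AS-IV-High and OVX differed by 0.00323 (95% interval -0.73 to 0.73). Leaving out Sham replicate 1 gave -0.39 in OVX vs. Sham, and leaving out OVX replicate 1 gave -0.53.

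Muscle markers were also high in Sham replicate 1, the highest library for Gli1. The 11 muscle markers tested were all highest in Sham replicate 1, and their summed level was 5721, 3628 and 1026 FPKM in the Sham libraries, 2027, 1222 and 1020 FPKM in the OVX libraries, and 2811, 1352 and 355 FPKM in the AS-IV libraries. Across the 9 libraries log2 CPM of Gli1 and the mean of the muscle markers had Pearson's r = 0.693 (exact permutation p = 0.0405, 0.405 adjusted over 90 relations) and Spearman's rho = 0.633 (exact permutation p = 0.076, adjusted 0.678). Without the 2 libraries farthest from the median of Gli1, Sham replicate 1 and OVX replicate 1, r was 0.892, and without Sham replicate 1 alone it was 0.494. The part of muscle RNA in the Gli1 difference was not tested.

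Gli2, the main activating Gli factor of hedgehog signalling, had 286, 386 and 344 counts per Sham library, 147, 256 and 285 per OVX library and 245, 223 and 259 per AS-IV library. As CPM the Sham libraries had 7.99, 11.1 and 9.63, the OVX libraries 4.05, 6.95 and 7.74, and the AS-IV libraries 6.57, 5.998 and 7.13. All 6 libraries of ovariectomized rats lay below all 3 Sham libraries, the nearest being OVX replicate 3 and Sham replicate 1. The log2FC was -0.64 (SE 0.252, 95% interval -1.21 to -0.07, edgeR adjusted p = 0.258) in OVX vs. Sham and -0.54 (SE 0.252, adjusted p = 0.305) for OVX-AS-IV-High vs. Sham, while OVX-AS-IV-High exceeded OVX by 0.11 (95% interval -0.46 to 0.67). Both ovariectomized groups together differed from Sham by -0.59 (SE 0.213, adjusted p = 0.172), with a two-sided exact permutation p of 0.0119, the smallest that 84 regroupings can give. This contrast was added after the data were seen, and its permutation p is not adjusted over the members. That p largely restates that the 2 sides did not overlap, as was so for 9.58% of all genes. Without OVX replicate 1 the difference of OVX from Sham was -0.41, and without Sham replicate 2 it was -0.50.

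Most chondrocyte markers had a difference of the same sign as Gli1 and Gli2. Of 19 tested, 16 had a negative log2FC in OVX vs. Sham, with a median of -0.56 beside -0.01 over all genes, and 1, the cartilage transcription factor gene Sox9, had an unadjusted p under 0.05 (log2FC -0.67, SE 0.295, adjusted p = 0.301), against 16.4% of all genes. The median depended on single libraries, with -0.22 (13 of 19 negative) without OVX replicate 1, -0.19 without Sham replicate 3, -0.37 without Sham replicate 1 and -0.87 without OVX replicate 3. Averaged over the list, log2 CPM was 5.58, 4.71 and 6.08 for the Sham replicates, 3.68, 5.15 and 5.58 across OVX, then 4.52, 5.67 and 5.27 with AS-IV, so the groups overlapped. Their summed level was 579 to 1165 FPKM in Sham, 358 to 805 FPKM after ovariectomy alone and 434 to 828 FPKM in OVX-AS-IV-High, and none of the 19 was at 3 counts or fewer in all libraries. In OVX-AS-IV-High vs. Sham the median was -0.34, with 16 of 19 negative. That median also depended on single libraries and changed sign. It was 0.089 (8 of 19 negative) without Sham replicate 3 and 0.0099 (9 of 19 negative) without OVX-AS-IV-High replicate 1. The 5 hypertrophic markers had a median of -0.05 in OVX vs. Sham. Across the 9 libraries the mean log2 CPM of the chondrocyte markers had r = 0.296 and rho = -0.05 with Gli1. With Gli2 it had r = 0.557 and rho = 0.367. Without OVX replicate 1, r was -0.158 for Gli1 and -0.00721 for Gli2. Without the 2 libraries farthest from the median of the member, r was -0.558 for Gli1 and 0.576 for Gli2. The part of chondrocyte RNA in the differences of Gli1 and Gli2 was not tested.

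Pthlh, the ligand of the feedback loop, was scarce, with 36, 33 and 10 counts across the Sham replicates, 10, 21 and 15 across the OVX replicates, and 26, 28 and 15 across the AS-IV replicates. Sham replicates 1 and 2 were the highest libraries and Sham replicate 3 was as low as OVX replicate 1. Its log2FC was -0.85 (SE 0.540, 95% interval -2.07 to 0.36, adjusted p = 0.432) in OVX vs. Sham, and -1.24 without Sham replicate 3, the 1 fit of those run in which it passed the unadjusted threshold of 0.05. For OVX-AS-IV-High vs. OVX it was 0.61 (95% interval -0.61 to 1.83), an interval that holds differences of either sign.

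Pth1r, the shared receptor of parathyroid hormone and its related protein, is also made by osteoblasts. It had 3741, 3369 and 5065 counts for the Sham libraries, 2587, 5455 and 4651 in those of OVX, and 2659, 4430 and 4080 with AS-IV. OVX replicate 1 and OVX-AS-IV-High replicate 1 were the low libraries, and all groups overlapped. The log2FC was -0.02 (SE 0.278, 95% interval -0.64 to 0.61) in OVX vs. Sham and 0.24 without OVX replicate 1. It was -0.16 (95% interval -0.78 to 0.47) for OVX-AS-IV-High vs. OVX.

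Fgfr3, the receptor that restrains chondrocyte proliferation, had 1710, 1233 and 1181 counts per Sham library, 1432, 2119 and 1055 per OVX library and 1454, 1433 and 1643 per AS-IV library. Both extremes were OVX libraries, and OVX replicate 1, low for most hedgehog genes, was in the middle here. The log2FC was 0.09 (SE 0.224, 95% interval -0.42 to 0.59) in OVX vs. Sham, 0.01 (95% interval -0.50 to 0.51) for OVX-AS-IV-High vs. OVX and 0.09 (95% interval -0.41 to 0.59) for OVX-AS-IV-High vs. Sham.

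Npr3, the clearance receptor of natriuretic peptides, had 222, 217 and 62 counts across the Sham replicates, 190, 225 and 304 across the OVX replicates, and 245, 281 and 235 across the AS-IV replicates. Sham replicate 3 stood apart at 1.74 CPM, and the next lowest library, OVX replicate 1, had 5.24 CPM. The 3 OVX-AS-IV-High libraries were above the 3 Sham libraries, with a log2FC of 0.55 (SE 0.414, 95% interval -0.38 to 1.48, adjusted p = 0.516) that was 0.16 without Sham replicate 3. In OVX vs. Sham it was 0.45 (SE 0.414), and 0.05 without that library. Neutrophil markers were also lowest in Sham replicate 3, in 4 of 5 genes, with a summed level of 10955 FPKM there and up to 19543 FPKM elsewhere. Npr3 and their mean log2 CPM had r = 0.852 (exact permutation p = 0.00353, adjusted 0.122) and rho = 0.85 (exact permutation p = 0.00607, adjusted 0.273), and r was 0.535 without the 2 libraries farthest from the median of Npr3. The part of neutrophil RNA was not tested.

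Nppc, which encodes C-type natriuretic peptide, was near the limit of detection, with 1, 3 and 12 counts for the Sham libraries, 6, 2 and 1 in those of OVX, and 1, 16 and 8 with AS-IV. In 5 of the 9 libraries it had 3 counts or fewer, and each group held at least 1 such library. The sums were 16, 9 and 25 counts among 106414095, 109898662 and 110816568. With no filter on low counts, edgeR gave a log2FC of -0.88 (SE 1.11) in OVX vs. Sham and 1.46 (SE 1.09) for OVX-AS-IV-High vs. OVX. In OVX-AS-IV-High vs. Sham that fit gave 0.59 (SE 1.03). No difference between the groups was detectable at this depth.

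In CPM, OVX replicate 1 was the lowest library for 6 of the 9 members tested, namely Ihh, Ptch1, Gli1, Gli2, Hhip and, by a narrow margin below Sham replicate 3, Pthlh, and for 13 of 19 chondrocyte and 4 of 5 hypertrophic chondrocyte markers. Over all genes tested it was the lowest library for 6.44%, and its total of 36260132 counts was within the range of the others. The members not lowest there were Pth1r, which had nearly equal values of 71.35 CPM there and 71.29 CPM in OVX-AS-IV-High replicate 1, Fgfr3 and Npr3. This is a count within 1 library and has no replicate.

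**Figure D3:**
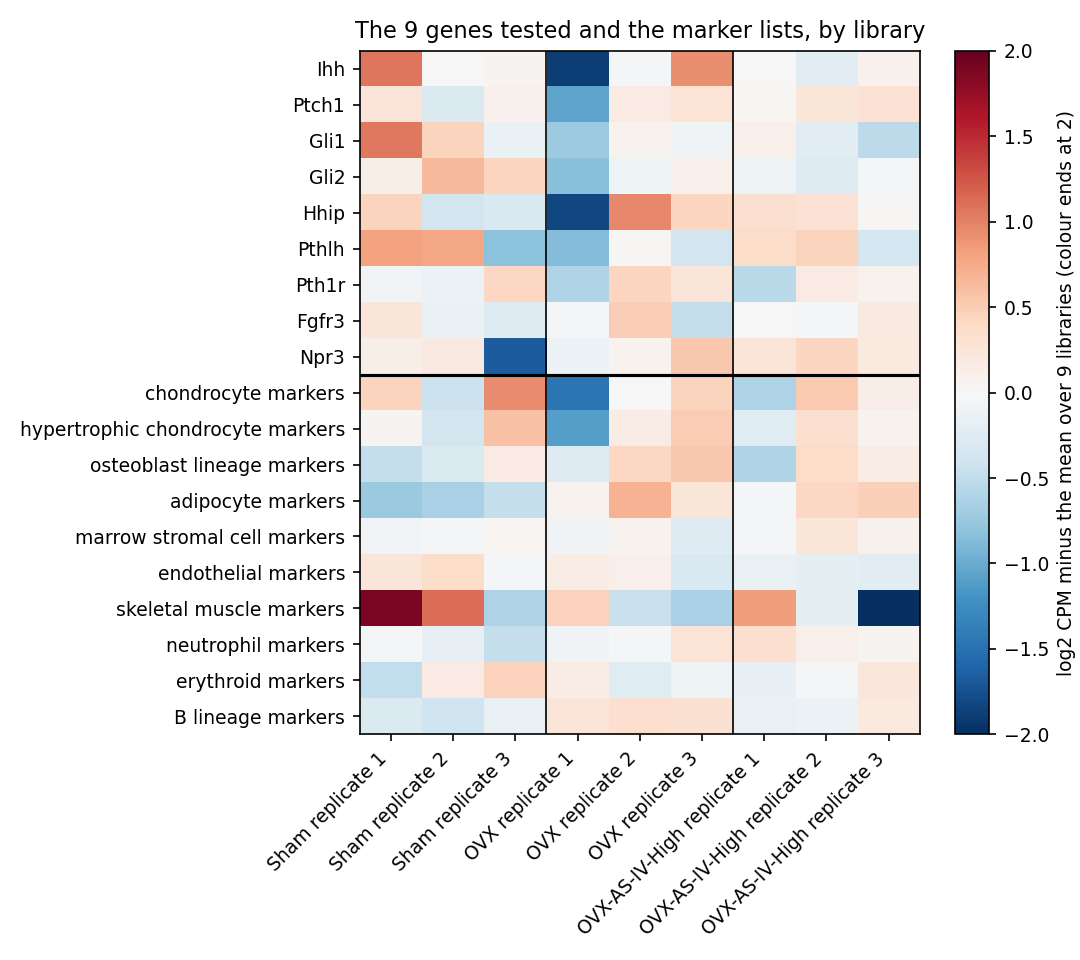
Log2 CPM of the 9 members tested (upper rows) and mean log2 CPM of 10 marker lists (lower rows), each minus its mean over the 9 libraries. Columns are libraries, with lines between the groups. OVX replicate 1 is blue for Ihh, Ptch1, Gli1, Gli2, Hhip and the chondrocyte markers together, and Sham replicate 1 is red for Ihh, Gli1 and the muscle markers.

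Fewer pairs of members varied together without OVX replicate 1. Of 36 pairs, 31 had a positive Pearson's r of log2 CPM over the 9 libraries and 11 had r over 0.5, and without OVX replicate 1 these were 23 and 5. No pair had an adjusted p under 0.05. The closest pair was Ptch1 and Hhip, with r = 0.895 (exact permutation p = 0.01, adjusted 0.18), rho = 0.55 (exact permutation p = 0.133, adjusted 0.752) and r = 0.118 without the 2 libraries farthest from the median of Ptch1. Ihh and Ptch1 had r = 0.852 (exact permutation p = 0.0163, adjusted 0.195), rho = 0.65 (exact permutation p = 0.0666, adjusted 0.752) and r = 0.297 without the 2 farthest libraries. Both relations rested on those libraries, and without OVX replicate 1 alone r was 0.533 and 0.382.

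Gli1 and Pthlh, a target and a ligand, had r = 0.775 (exact permutation p = 0.00985, adjusted 0.18), rho = 0.75 (exact permutation p = 0.0255, adjusted 0.664) and r = 0.598 without the 2 libraries farthest from the median of Gli1. Without OVX replicate 1 its r was 0.695. Gli2 turned against the receptor and the decoy without that library, from r = 0.486 to -0.709 with Ptch1 and from r = 0.4 to -0.716 with Hhip. Deviations from the group means gave r = 0.866 for Gli1 and Pthlh, 0.914 for Ptch1 and Hhip, and 0.918 for Ihh and Ptch1. These deviations still included OVX replicate 1, without which r of log2 CPM was 0.533 for Ptch1 and Hhip and 0.382 for Ihh and Ptch1.

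**Figure D4:**
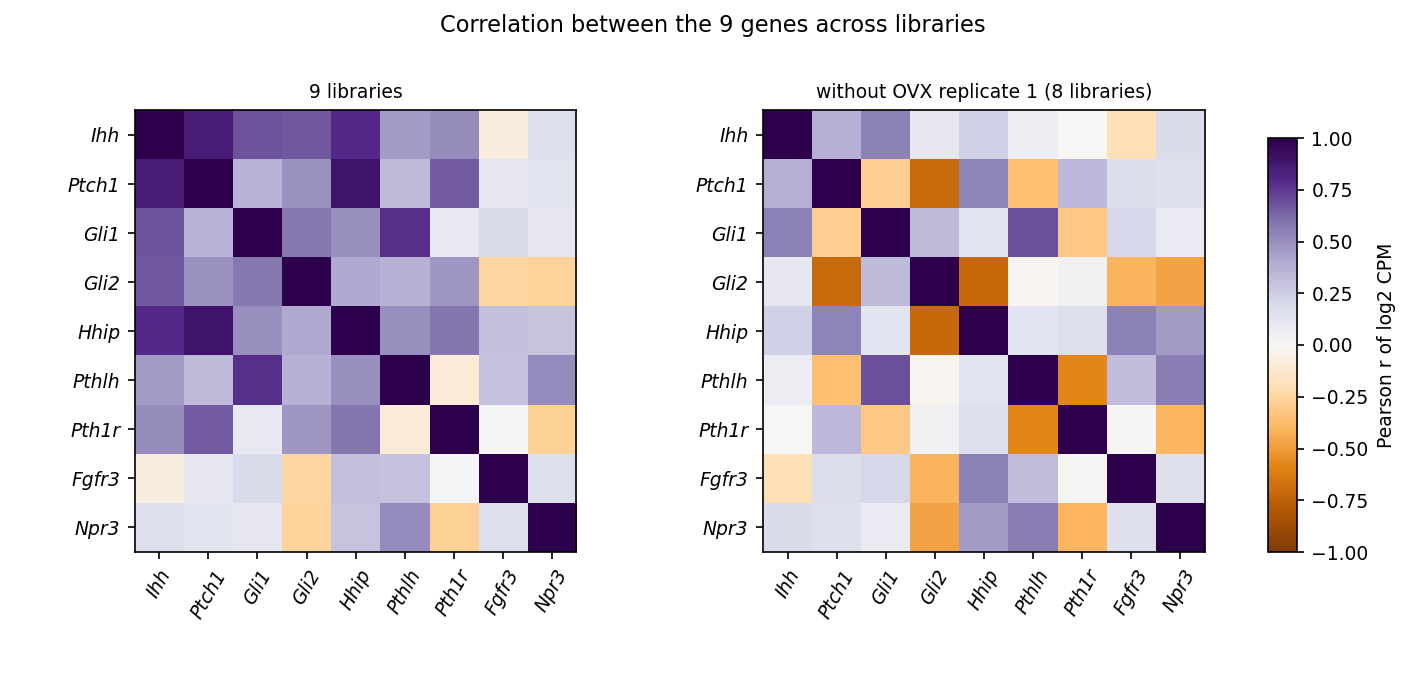
Pearson's r of log2 CPM between the 9 members tested, over 9 libraries (left) and over 8 without OVX replicate 1 (right); purple is positive and orange negative. Of 36 pairs, 31 are positive on the left and 23 on the right, and Gli2 with Ptch1 goes from 0.486 to -0.709.

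The receptors Ptch1 and Pth1r were the members closest to markers of cartilage. Ptch1 and the mean of the hypertrophic markers had r = 0.88 (exact permutation p = 0.00585, adjusted 0.132) and rho = 0.567 (exact permutation p = 0.121, adjusted 0.678), and r = 0.225 without the 2 libraries farthest from the median of Ptch1, so that the relation rested on OVX replicate 1 and Sham replicate 2. Pth1r and the same markers had r = 0.852 (exact permutation p = 0.00218, adjusted 0.122) and rho = 0.883 (exact permutation p = 0.00308, adjusted 0.273), and r = 0.751 without its 2 farthest libraries. With the osteoblast markers Pth1r had r = 0.795 (exact permutation p = 0.0109, adjusted 0.163), rho = 0.8 (exact permutation p = 0.0138, adjusted 0.311) and r = 0.758 without those 2 libraries. With the 19 chondrocyte markers Pth1r had r = 0.839 and rho = 0.717, and Ptch1 had r = 0.834 and rho = 0.583. Without the 2 libraries farthest from the median of the member, r with these markers was 0.505 for Pth1r and 0.337 for Ptch1. Of 90 relations of a member with a marker list, none had an adjusted p under 0.05.

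Across the other genes tested, the closest profile to Ptch1 over the 9 libraries was that of Prkg2, a cGMP-dependent protein kinase gene known for its part in chondrocyte hypertrophy, with r = 0.982 and 0.899 without OVX replicate 1. Prkg2 had 281, 93 and 253 counts per Sham library, 14, 405 and 458 per OVX library and 208, 418 and 290 per AS-IV library. The next were Foxd1 (r = 0.962) and Spag6 (r = 0.956) for Ptch1, and Spag6 (r = 0.953), Tmem8b (r = 0.95) and Foxd1 (r = 0.944) for Hhip. For Ihh they were Klhl17 (r = 0.939), LOC297568 (r = 0.935) and Meltf (r = 0.926), each under 0.8 without OVX replicate 1. With 9 libraries and 16865 genes compared, every member had 3 genes with r of at least 0.923.

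For Gli1 the closest were E4f1 (r = 0.97), Plb1 (r = 0.97) and Zfp512 (r = 0.969), and for Gli2 Plk5 (r = 0.952), Duox1 (r = 0.939) and St3gal3 (r = 0.934). Pthlh was closest to Nebl (r = 0.955), Parp8 (r = 0.939) and LOC102555453 (r = 0.923), and Pth1r to Chst2 (r = 0.955), Efemp2 (r = 0.952) and LOC100910150 (r = 0.95). Fgfr3 was closest to Camk2n1 (r = 0.951), Gstm2 (r = 0.946) and LOC102549726 (r = 0.943), and Npr3 to LOC120093104 (r = 0.976), Fpr2 (r = 0.943) and LOC120098873 (r = 0.935). The last 2 dropped to 0.501 and 0.477 without Sham replicate 3.

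The genes around the members were read from 5 pathway lists, none of which held a gene with an adjusted p under 0.05 by edgeR in any comparison, as was so for 0 of all genes tested. The counts at an unadjusted p under 0.05 given below stand against 16.4% of all genes in OVX vs. Sham, 6.45% for OVX-AS-IV-High vs. OVX and 17.6% in OVX-AS-IV-High vs. Sham. In OVX vs. Sham the median log2FC was -0.19 for hedgehog ligands, release and reception (8 of 11 negative), -0.02 for hedgehog transduction (7 of 14), 0.02 for the parathyroid hormone pathway (7 of 15), -0.20 for FGF ligands, receptors and feedback (18 of 22) and -0.46 for natriuretic peptides (5 of 6), beside -0.01 over all genes. Of 11 genes for ligands, release and reception, 2 had an unadjusted p under 0.05 in OVX vs. Sham, both lower, a share near the 16.4% of all genes. The ligand Dhh had 66, 46 and 36 counts across the Sham replicates, 15, 30 and 8 across the OVX replicates, and 19, 23 and 17 across the AS-IV replicates, so that every Sham library was above every other (log2FC -1.55, SE 0.479, adjusted p = 0.187 in OVX vs. Sham). Scube3, which helps to release hedgehog, differed by -0.97 (SE 0.343, adjusted p = 0.22). For OVX-AS-IV-High vs. OVX, 1 of the 11 had an unadjusted p under 0.05, and it was higher, against 6.45% of all genes. In OVX-AS-IV-High vs. Sham, 3 of the 11 did, 1 higher and 2 lower, against 17.6% of all genes. The 2 lower genes were Dhh, by -1.37 (SE 0.475, adjusted p = 0.198), and Scube2, also a release factor, by -0.82 (SE 0.307, adjusted p = 0.222). The higher gene, not named here, was the 1 gene of the 11 that DESeq2 called in OVX-AS-IV-High vs. Sham.

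Of 14 genes of hedgehog transduction, 2 had an unadjusted p under 0.05 in OVX vs. Sham, 2 for OVX-AS-IV-High vs. OVX and 4 in OVX-AS-IV-High vs. Sham, against 16.4%, 6.45% and 17.6% of all genes. Evc2, a ciliary protein that promotes hedgehog signalling in chondrocytes, had 490, 910 and 1025 counts per Sham library, 523, 655 and 128 per OVX library and 100, 118 and 94 per AS-IV library. Every AS-IV library was below every other, with OVX replicate 3 close to them. The log2FC was -2.04 (SE 0.523, adjusted p = 0.652) against OVX and -3.01 (SE 0.538, adjusted p = 0.1) against Sham. Its partner Evc had a log2FC against Sham of -0.59 (SE 0.245, adjusted p = 0.277) in OVX and -0.58 (SE 0.245, adjusted p = 0.266) in OVX-AS-IV-High. Spop, a ubiquitin ligase adaptor for Gli proteins, differed by -0.32 in OVX vs. Sham, and Arl13b, a ciliary GTPase, by 0.56 for OVX-AS-IV-High vs. OVX. None of these passed the adjusted threshold by edgeR. DESeq2 called Evc2 for OVX-AS-IV-High vs. OVX (adjusted p = 0.0223) and in OVX-AS-IV-High vs. Sham (adjusted p = 1.98e-07), the 1 gene of the 14 that it called in each.

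In the parathyroid hormone list, 3 of 15 genes had an unadjusted p under 0.05 in OVX vs. Sham (Mef2d 0.23, Hdac5 0.23 and Crtc2 -0.38 in log2FC), 2 for OVX-AS-IV-High vs. OVX (Creb1 0.32 and Mef2d -0.19) and 3 in OVX-AS-IV-High vs. Sham (Creb1 0.44, Sik2 0.31 and Crtc2 -0.34). These encode transcription factors, a coactivator, a histone deacetylase and a kinase that act downstream of the receptor. The counts of 3 lie near the shares of all genes, 16.4% and 17.6%, and DESeq2 gave 1 of the 15 an adjusted p under 0.05, Creb1 in OVX-AS-IV-High vs. Sham (adjusted p = 0.0442). In the FGF list, 4 of 22 had an unadjusted p under 0.05 in OVX vs. Sham, 1 for OVX-AS-IV-High vs. OVX (Frs2, 0.25) and 1 in OVX-AS-IV-High vs. Sham (Klb), against 16.4%, 6.45% and 17.6% of all genes, so that none of the 3 shares stood well above that of all genes. DESeq2 gave an adjusted p under 0.05 to Fgf23, Klb and Spry1 in OVX vs. Sham and to Klb in OVX-AS-IV-High vs. Sham.

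Fgf23, the phosphate-regulating hormone of osteocytes, had 197, 131 and 271 counts across the Sham replicates, 72, 74 and 99 across the OVX replicates, and 38, 140 and 128 across the AS-IV replicates. Sham and OVX did not overlap (log2FC -1.35, SE 0.456, adjusted p = 0.208). Klb, a co-receptor for FGF21, had 0, 10 and 7 counts for the Sham libraries, 31, 76 and 24 in those of OVX, and 19, 43 and 71 with AS-IV, with a log2FC of 2.82 (SE 0.902, adjusted p = 0.199) in OVX vs. Sham. Klb is known from fat, and 7 of 10 adipocyte markers had an unadjusted p under 0.05 in OVX vs. Sham, all higher, against 16.4% of all genes in either direction, with summed levels of 580 to 787 FPKM in Sham and 806 to 1102 FPKM in OVX. The part of fat RNA in the Klb difference was not tested. The feedback inhibitor Spry1 differed by -0.45 (SE 0.125, adjusted p = 0.166) and the receptor Fgfr4 by -1.61 (SE 0.576, adjusted p = 0.224), the latter with 49, 35 and 10 counts in Sham and 12, 10 and 10 in OVX.

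In the natriuretic peptide list, 1 of 6 genes had an unadjusted p under 0.05 in OVX vs. Sham, 0 for OVX-AS-IV-High vs. OVX and 1 in OVX-AS-IV-High vs. Sham, shares near or below the 16.4%, 6.45% and 17.6% of all genes. It was Npr1, a guanylate cyclase receptor, with 2700, 2310 and 1354 counts per Sham library, 1447, 1458 and 1243 per OVX library and 1812, 1413 and 1279 per AS-IV library. Sham replicates 1 and 2 stood above all others and Sham replicate 3 did not (log2FC -0.69, SE 0.232, adjusted p = 0.206 in OVX vs. Sham). The same split within Sham was seen for the members Gli1 and Pthlh.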

How the data were processed

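Poly(A)-selected RNA from the bone of 3 independent animals per group was sequenced on an Illumina HiSeq X-ten. Per the study's methods, Tophat/Bowtie2 aligned the clean reads and eXpress estimated expression, and the submitters' processing notes name the build mRatBN7.2. How the estimates became whole numbers, and any strand setting, is not given in the sources used here. Raw counts, all whole numbers, and FPKM were deposited by the authors in separate tables of 23026 genes.

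Counts were tested with edgeR 4.0.16 (quasi-likelihood test, TMM, minimum count of 10, all 9 libraries in 1 fit), with Benjamini-Hochberg adjustment over 16874 genes. Log2 CPM had a prior count of 2, and correlations used exact permutations of the 9 libraries. Scripts were tested on simulated data. The alternatives were DESeq2 1.42.0, RLE size factors, no filter, limma 3.58.1 on log2(FPKM + 1) and log2(FPKM + 0.1), only the groups compared, a replicate block and leaving out each library. Libraries of the same replicate number in OVX and OVX-AS-IV-High had r = 0.31, 0.158 and 0.13 for deviations from group means. Those in OVX-AS-IV-High and Sham had r = 0.314, -0.158 and 0.435. Libraries of different numbers were not compared in this way, and no label ties the numbers to a shared batch. The members and lists were chosen with earlier results of these data known. Named genes were the 10 members, up to 4 genes per list and comparison with the smallest unadjusted p under 0.05, the 3 closest profiles per member and 7 defining markers. Of the listed genes, Shh, Pth2, Nppa, Nppb, Mylpf and Vpreb1 were not analysed here. A few others, Nppc among them, had too few counts to be tested in the main edgeR fit. Of the listed genes that were tested, 1 is not reported by name here. The lists were also read by DESeq2, and without each library, after the data were seen.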

Additional observations from a re-analysis of the deposited data

How the results depend on the processing

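The number of members with an unadjusted p under 0.05 depended on the fit. In OVX vs. Sham (2) it was 2 with DESeq2, RLE size factors or no filter on low counts, 1 with limma on log2(FPKM + 1) or log2(FPKM + 0.1), 0 with only the groups compared and 0 to 2 when 1 library was left out, with 0 without Sham replicate 2 or OVX replicate 1. In OVX-AS-IV-High vs. Sham (1) it was 2 with DESeq2, 0 with RLE size factors, 0 with limma on log2(FPKM + 0.1), and 0 to 2 when 1 library was left out. For AS-IV against OVX it was 0 in every alternative run. Gli2 stayed negative against Sham in all fits, from -0.84 to -0.34 in OVX and from -0.66 to -0.29 in OVX-AS-IV-High, as did Gli1, from -0.98 to -0.39 and from -0.98 to -0.38. The cause was not tested.

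With the replicate block, 1 member, Gli2, had an unadjusted p under 0.05 in OVX vs. Sham, and Gli1 did not. Libraries of the same number in these 2 groups had r = 0.2, -0.161 and 0.253 for deviations from group means. For AS-IV against OVX the block turned Gli1 to -0.047 and Hhip to 0.0389, and it changed no other direction and no call in that comparison. In OVX-AS-IV-High vs. Sham Gli1 lost and Gli2 gained an unadjusted p under 0.05 with the block, so that the count of 1 stood for a different gene. Limma on log2(FPKM + 1) and log2(FPKM + 0.1) turned, for AS-IV against OVX, Ihh to 0.0743 and 0.22 and Gli1 to -0.0154 and -0.0161. The latter fit also turned Hhip to 0.17 in that comparison. The contrast of both ovariectomized groups with Sham, added after the data were seen, gave Ptch1 0.0138.

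Leaving out 1 library turned the direction of members close to 0. In OVX vs. Sham the log2FC ranged from -1.15 to 0.0672 for Ihh, -0.36 to 0.18 for Ptch1, -0.29 to 0.78 for Hhip, -0.22 to 0.24 for Pth1r and -0.20 to 0.29 for Fgfr3. For AS-IV against OVX it ranged from -0.57 to 0.65 for Ihh, -0.0215 to 0.52 for Ptch1, -0.20 to 0.16 for Gli1, -0.13 to 0.30 for Gli2, -0.53 to 0.54 for Hhip, -0.41 to 0.0482 for Pth1r, -0.20 to 0.29 for Fgfr3 and -0.0319 to 0.32 for Npr3. In OVX-AS-IV-High vs. Sham it ranged from -0.63 to 0.0167 for Pthlh, -0.31 to 0.016 for Pth1r and -0.00773 to 0.26 for Fgfr3. With 3 libraries per group, an exact permutation test of 2 groups cannot give a two-sided p below 0.1, and 1 library can set a difference.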
